A study of Rattus norvegicus with 30 samples.

Results

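The 9 genes described here encode the 2 corticosteroid receptors of the brain and proteins that act on them before and after they bind hormone. They are *Nr3c1* (the glucocorticoid receptor), *Nr3c2* (the mineralocorticoid receptor), *Fkbp5*, *Hsp90aa1*, *Stip1*, *Ncoa1*, *Ncor1*, *Hsd11b1* and *Stat5b*. They were taken by gene name, as the probes annotated to these genes, with no threshold on a measured value, though earlier results of these data were known when the list was drawn up. Each gene had 1 probe, so 9 of the 22523 probes on the array are described, and all 9 were among the 11888 probes kept for testing.

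The samples were hippocampi of adult Sprague Dawley rats of both sexes, with 1 rat per array. Extreme responders were rats exposed to predator scent that showed an extreme behavioural response, with 5 females and 5 males. Minimal responders had the same exposure and a minimal response, with 5 females and 4 males with values, since male minimal responder 5 held none. Controls were not exposed to the scent and were tested for behaviour, with 5 females and 5 males. No group carried a transgene or a drug. The behavioural groups were picked by response among exposed rats, so extreme against minimal compares rats of 1 exposure, and either of them against control compares a picked subset with unexposed rats. Values are deposited intensities on a log2 scale, on which 1 unit is a doubling.

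Corticosterone, the main glucocorticoid of the rat, enters cells and binds receptors that wait in the cytoplasm in a complex with the chaperone HSP90. The mineralocorticoid receptor has the higher affinity and is occupied at resting hormone levels in the hippocampus, while the glucocorticoid receptor fills as the hormone rises after stress. The co-chaperone encoded by *Stip1* hands a receptor over from HSP70 to HSP90, and FKBP51, the product of *Fkbp5*, then binds HSP90 and lowers the receptor's affinity for hormone. *Fkbp5* is itself induced through the glucocorticoid receptor, which closes a short negative feedback loop. In the nucleus, coactivators such as the product of *Ncoa1* and corepressors such as the product of *Ncor1* set the output of the bound receptor.

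Several features of the arrays touch the results below. By the values of 8 probes the arrays fell into sets named A (12 rats) and B (17 rats), which no label gives. All 10 extreme responders belonged to set B, whereas 6 of 9 minimal responders and 6 of 10 controls belonged to set A, so differences of extreme responders were also fitted with the set as a block, and the plot of differences by sex shows both fits for all 9 genes. The array of male extreme responder 4 was unlike the rest, its median correlation to other arrays being 0.964 where that of the others was 0.977 to 0.988. Choroid plexus markers, a sign of neighbouring tissue, had a mean log2 intensity of 9.93 to 10.4 on 4 arrays (female extreme 5, female minimal 3, female control 2 and male minimal 2) and of 6.87 to 8.92 on the others. The mean level of 2 thalamus markers also reached 11.37, 11.12 and 11.27 in female extreme, female control and male minimal rats. The medians of those groups were 8.78, 8.64 and 8.47, and the highest value in any other group was 9.55. No fit left out arrays by the thalamus markers. Markers of hippocampal pyramidal cells and dentate granule cells were detected in every group, and the group medians of their mean log2 level were 9.30 to 9.51 and 8.67 to 9.12. The labelled sex could not be checked, since 0 of 5 sex-linked genes looked for had a named probe. Rat names in the labels begin with F for every female and end with R for every male. A difference between the sexes therefore cannot be told apart from one between these series of rats. In whole tissue, fewer cells of a type and less RNA per cell cannot be told apart.

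Of the 9 genes, 2 differed between extreme and minimal responders when both sexes were averaged. *Hsp90aa1*, the stress-inducible cytosolic HSP90 isoform, was 1.33-fold higher and *Fkbp5* was 0.802-fold, that is lower, in extreme responders (limma, adjusted p = 0.0141 and 0.0418). In that comparison 7.95% of all probes passed, 3.31% higher and 4.63% lower. With the set as a block 2.05% passed and 1 of the 9 genes, *Hsp90aa1*, was among them. In the fit of all 6 groups, none of the 9 passed in any of the 6 comparisons between groups of 1 sex, by limma with adjustment over all probes, and with the sexes fitted separately *Fkbp5* passed for female extreme against minimal responders (adjusted p = 0.0483). The share of all probes past the threshold in females was 3.79% for extreme against minimal responders, 1% for extreme responders against controls and 0% for minimal responders against controls. In males it was 0.0757%, 0.622% and 0% in the same order, and with the set as a block it was 3.26% and 1.59% for the female and 0.0336% and 0.479% for the male comparisons of extreme responders with minimal responders and with controls. At an unadjusted p under 0.05 there were 3, 1 and 1 of the 9 genes in those comparisons of females, against 18.4%, 13.2% and 11.1% of all probes. In males there were 3, 3 and 0 of the 9, against 15.1%, 16.5% and 4.24% of all probes. For the mean of both exposed groups minus control with the sexes averaged, none of the 9 passed by limma and 0.109% of all probes did. At an unadjusted p under 0.05 that comparison gave 0 of the 9 and 8.68% of all probes. Both exposed groups were picked by response, so it does not measure exposure as such. In extreme against minimal responders with both sexes averaged, an unadjusted p under 0.05 was met by 4 of the 9, *Hsp90aa1*, *Fkbp5*, *Ncor1* and *Hsd11b1*, and by 23.8% of all probes.

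**Figure D1:**
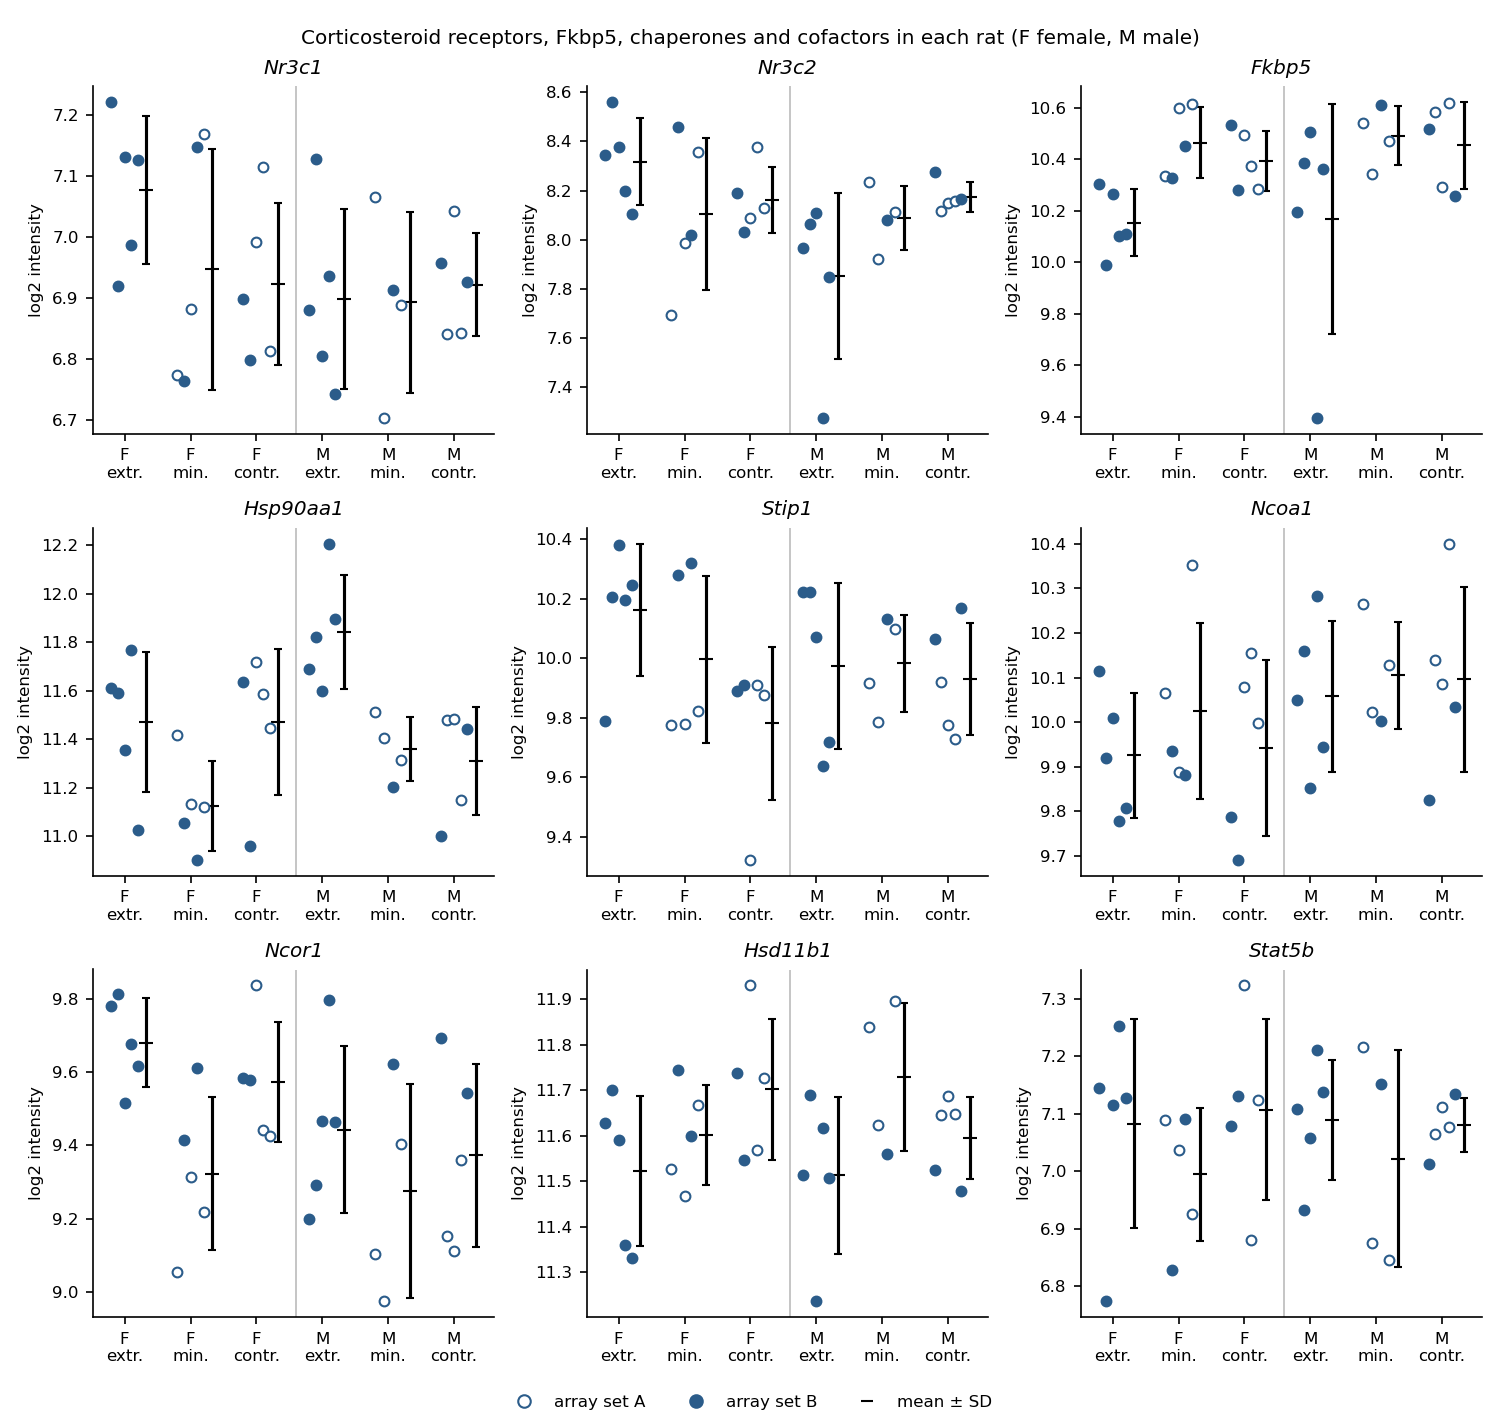
Log2 intensity of each of the 9 genes (1 panel a gene, with its own vertical scale) in every rat, for extreme, minimal and control females and then males. Open points are rats of array set A, filled points rats of set B, and the bars are the mean ± SD. *Hsp90aa1* is highest in male extreme responders (11.60 to 12.21), and 1 male extreme responder lies at 9.39 for *Fkbp5*.

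The glucocorticoid receptor was measured near the floor of the array. The *Nr3c1* probe lay above the background level of 7.03 on only 9 of 29 arrays, of which 3 were female extreme responders, 2 female minimal responders and 1 each of the other groups. Its values were 7.22, 6.92, 7.13, 6.99 and 7.13 in female extreme responders, 6.77, 6.76, 6.88, 7.15 and 7.17 in female minimal responders, and 6.90, 6.80, 6.99, 7.11 and 6.81 in female controls. These groups overlapped throughout. In males the values were 6.88, 7.13, 6.80, 6.94 and 6.74 in extreme responders, 7.07, 6.70, 6.91 and 6.89 in minimal responders, and 6.96, 6.84, 7.04, 6.84 and 6.93 in controls. The female extreme responders had the highest mean, 7.08 ± 0.122 against 6.92 ± 0.132 in female controls (SD, n = 5 each), a difference of 0.15 ± 0.09 (SE) that did not pass (adjusted p = 0.492 by limma). With most arrays at background, this probe could show little of a difference in *Nr3c1* if there was one.

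*Nr3c2*, the mineralocorticoid receptor, is abundant in hippocampal neurons and was above background on all 29 arrays. In females it stood at 8.35, 8.56, 8.38, 8.20 and 8.11 in extreme responders, 7.69, 8.46, 7.99, 8.02 and 8.36 in minimal responders, and 8.19, 8.03, 8.09, 8.38 and 8.13 in controls. Male extreme responders had 7.97, 8.06, 8.11, 7.28 and 7.85, male minimal responders 8.24, 7.92, 8.08 and 8.11, and male controls 8.28, 8.12, 8.15, 8.16 and 8.17. Every male extreme responder was below every male control, the controls being tightly grouped (SD 0.0608). Such a separation was seen for 2.99% of all probes in that comparison. The difference was −0.32 ± 0.13 and did not pass (adjusted p = 0.218 by limma, unadjusted p = 0.0209). It was −0.36 with the set as a block (adjusted p = 0.230). It rested in part on male extreme responder 4, the lowest of all rats at 7.28, without which it was −0.18 (adjusted p = 0.537).

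In females the corresponding difference of *Nr3c2* was on the other side of 0, at 0.15 ± 0.13 (adjusted p = 0.680), with all groups overlapping. The female effect minus the male effect was 0.48 ± 0.19 for extreme against control and 0.45 ± 0.19 for extreme against minimal responders. These are direct tests of female against male effects, in which sex cannot be told apart from the series of rats. They gave unadjusted p-values of 0.0159 and 0.0258 and adjusted p-values of 0.472 and 0.542 by limma (0.347 and 0.439 with the set as a block). Of all probes, 0.0168% and 0% passed for a sex difference in those comparisons, and none of the 9 genes did by limma. An unadjusted p under 0.05 was met by 2 of the 9 for extreme against control, where 8.5% of all probes met it, and by 1 for extreme against minimal, where 7.84% did. No balance of the 2 receptors is given, since the *Nr3c1* probe was above background on only 9 of 29 arrays.

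*Hsd11b1* encodes the enzyme that regenerates active corticosterone from its inert form inside cells. It was among the steadier of the 9 genes, with all 29 arrays between 11.24 and 11.93. Female extreme responders had 11.63, 11.70, 11.59, 11.36 and 11.33, female minimal responders 11.53, 11.75, 11.47, 11.60 and 11.67, and female controls 11.74, 11.55, 11.93, 11.57 and 11.73. In males the values were 11.51, 11.69, 11.24, 11.62 and 11.51 in extreme responders, 11.84, 11.62, 11.56 and 11.90 in minimal responders, and 11.52, 11.64, 11.69, 11.65 and 11.48 in controls. All groups overlapped. Extreme responders averaged below minimal responders in both sexes, by −0.15 ± 0.07 with the sexes averaged, which did not pass (adjusted p = 0.173 by limma) and was −0.10 with the set as a block.

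*Fkbp5* averaged lower in extreme than in minimal responders of both sexes, and the difference passed when the sexes were averaged. Its values in females were 10.30, 9.99, 10.27, 10.10 and 10.11 in extreme responders, 10.33, 10.33, 10.60, 10.45 and 10.61 in minimal responders, and 10.53, 10.28, 10.50, 10.38 and 10.28 in controls. Every female extreme responder lay below every female minimal responder, as 6.67% of all probes did or did the reverse, while extreme responders and controls overlapped at the edge. The female means were 10.15 ± 0.13, 10.47 ± 0.139 and 10.39 ± 0.117 in extreme, minimal and control rats (SD, n = 5 each). Extreme minus minimal was −0.31 ± 0.13 in females (adjusted p = 0.201 by limma) and extreme minus control −0.24 ± 0.13 (adjusted p = 0.463). These were −0.29 and −0.22 with the set as a block (adjusted p = 0.295 and 0.523). The SEs use a spread shared by all 6 groups, and male extreme responders had an SD of 0.447. Without male extreme responder 4 the female extreme minus minimal difference stayed at −0.31, with an SE of 0.09 (adjusted p = 0.0321 by limma). Female extreme minus control did not pass without that rat (adjusted p = 0.163). With the sexes fitted separately, female extreme minus minimal had an adjusted p of 0.0483. Neither fit held the set block.

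Male extreme responders had *Fkbp5* values of 10.19, 10.39, 10.51, 9.39 and 10.36, against 10.54, 10.34, 10.61 and 10.47 in minimal responders and 10.52, 10.59, 10.29, 10.62 and 10.26 in controls. The value of 9.39 belonged to male extreme responder 4, and the other 4 male extreme responders, at 10.19 to 10.51, overlapped the male minimal and control rats. Extreme minus minimal was −0.32 ± 0.14 in males with all 5 extreme responders and −0.13 ± 0.10 without that rat (adjusted p = 0.276 and 0.622), and −0.30 with all 5 and the set as a block (adjusted p = 0.497). The test of a sex difference gave 0.01 (95% interval −0.39 to 0.41, adjusted p = 0.995), and without that rat −0.18 (adjusted p = 0.784).

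With both sexes averaged, *Fkbp5* was −0.32 ± 0.10 in extreme against minimal responders (adjusted p = 0.0418 by limma). Without male extreme responder 4 it was −0.22 ± 0.06 and past the threshold (adjusted p = 0.0352). The call was lost with the set as a block, where the estimate stayed at −0.30 and the adjusted p was 0.182, and without the 4 arrays high in choroid plexus genes (−0.32, adjusted p = 0.104). Leaving out male extreme responder 4 and adding the block gave −0.20 (adjusted p = 0.151). Over the 29 fits that each left out 1 rat, the difference ranged from −0.36 to −0.22 and passed in 19.

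Between female extreme and minimal responders the sign of the *Fkbp5* difference was opposite to that of 9 of 10 other glucocorticoid-induced transcripts kept, while between the same groups of males 8 of the 10 were negative, as *Fkbp5* was, with a median of −0.15 and 0 past the threshold. *Sgk1*, a kinase induced by corticosteroids, averaged 12.78 ± 0.21 in female extreme, 11.91 ± 0.276 in female minimal and 11.71 ± 0.344 in female control rats. Of the 10, 4 rose in female extreme against minimal responders, where 1.36% of all probes did, and the median over the 10 was 0.47, against 0.00 over all probes. With the sexes averaged 0 of the 10 rose. The list is one whose rise was already known from these data, so its count is a description.

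To show the sequence from which these transcripts start, the region before the start site is given for *Fkbp5* and *Stip1*, the chaperone-binding members with an entry in the RefSeq promoter table (build GRCr8). Entries were found for 6 of the 9 genes, *Nr3c1* with 2 start sites, and were not matched for *Nr3c2*, *Hsp90aa1* and *Hsd11b1*. Each line gives the 250 bases before the annotated start, 5′ to 3′ on the gene's strand, with motif matches in capitals. The *Fkbp5* stretch is chr20:6543556-6543805 and the *Stip1* stretch chr1:213657655-213657904, both on the minus strand.
Fkbp5: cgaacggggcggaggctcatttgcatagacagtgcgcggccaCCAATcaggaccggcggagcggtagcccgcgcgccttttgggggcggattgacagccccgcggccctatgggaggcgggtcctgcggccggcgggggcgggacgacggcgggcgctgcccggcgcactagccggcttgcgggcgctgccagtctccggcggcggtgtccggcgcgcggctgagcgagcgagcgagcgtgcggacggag
Stip1: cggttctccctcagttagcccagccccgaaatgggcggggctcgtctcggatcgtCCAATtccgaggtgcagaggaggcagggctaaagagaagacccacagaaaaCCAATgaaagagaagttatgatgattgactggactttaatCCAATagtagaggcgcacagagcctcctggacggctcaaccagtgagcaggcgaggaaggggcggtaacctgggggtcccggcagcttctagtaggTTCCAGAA

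The motifs were searched on both strands in 33469 promoters of the same length. The capitals in *Fkbp5* are a CCAAT box, found in 34.0% of promoters, at position −208 from the start site. In *Stip1* they are 3 CCAAT boxes and, in the last 8 bases before the start site, TTCNNGAA, a pair of heat shock element units, a motif found in 7.48% of promoters. The full glucocorticoid response element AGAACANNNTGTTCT had no match in the 7 windows of the 6 genes and is in 0.012% of all promoters, and a single arm of it, AGAACA, matched 2 times in *Ncoa1* and is in 17.5%. The 3-unit heat shock element GAANNTTCNNGAA, in 0.663% of promoters, and GAANNTTC, in 7.23%, had no match in these windows. A match or its absence in these windows is a description of the letters only, and no binding was measured.

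*Hsp90aa1* had the largest difference of the 9 genes between extreme and minimal responders with the sexes averaged, and its highest values were in males. Male extreme responders had 11.69, 11.82, 11.60, 12.21 and 11.90, against 11.51, 11.41, 11.20 and 11.32 in male minimal responders and 11.00, 11.48, 11.48, 11.15 and 11.44 in male controls. All 5 male extreme responders were above every other male. Separation of this kind, in either direction, was found for 3.84% of all probes between male extreme and minimal responders and for 2.99% between male extreme responders and controls. The means were 11.84 ± 0.235 in male extreme (n = 5), 11.36 ± 0.132 in male minimal (n = 4) and 11.31 ± 0.223 in male control rats (n = 5).

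The male difference in *Hsp90aa1* was 0.48 ± 0.15 against minimal responders (adjusted p = 0.132 by limma) and 0.53 ± 0.14 against controls (adjusted p = 0.0693). Against controls it passed with the set as a block (0.67, adjusted p = 0.0317). It also passed without the arrays high in choroid plexus genes (0.53, adjusted p = 0.0415) and without female control 2 (0.53, adjusted p = 0.0465). None of the arrays left out there was a male extreme responder or male control. The estimate therefore stayed at 0.53, and what changed was the spread shared by all groups. Of the 29 fits that each left out 1 rat, only that without female control 2 passed. Without male extreme responder 4, which had the highest value, the difference from controls was 0.44 (adjusted p = 0.184). Male minimal responders and controls differed by 0.05 ± 0.15 (adjusted p = 0.998).

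In females the pattern of *Hsp90aa1* was different in shape. Extreme responders had 11.61, 11.59, 11.35, 11.77 and 11.03, minimal responders 11.42, 11.05, 11.13, 10.90 and 11.12, and controls 11.63, 10.96, 11.72, 11.59 and 11.45. Female extreme responders and controls had the same mean, 11.47, and the minimal responders the lower one, 11.12 ± 0.187 (SD, n = 5). The difference was 0.35 ± 0.14 for extreme against minimal responders (adjusted p = 0.179), −0.34 ± 0.14 for minimal responders against controls (adjusted p = 0.372) and 0.00 ± 0.14 for extreme responders against controls. None of these passed by limma, and the 3 groups overlapped. With the set as a block, extreme against minimal responders gave 0.48 (adjusted p = 0.0605) and extreme responders against controls 0.14 (adjusted p = 0.733). The female effect minus the male effect for extreme against control was −0.53 ± 0.20 (unadjusted p = 0.0134, adjusted p = 0.466, and 0.299 with the set as a block), so a sex difference was not called.

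Averaged over both sexes, *Hsp90aa1* was 0.41 ± 0.10 higher in extreme than in minimal responders (adjusted p = 0.0141 by limma). The call held in all 29 fits that left out 1 rat, with differences of 0.37 to 0.47 and adjusted p-values of 0.00557 to 0.0318. With the set as a block the difference was 0.57 (adjusted p = 0.0148), and without the arrays high in choroid plexus genes 0.48 (adjusted p = 0.00739). Some markers of other cells moved in the same comparison. The 6 oligodendrocyte markers kept were all higher in extreme responders with a median of 0.35, of which 2 passed, the 5 astrocyte markers were all higher with a median of 0.23, of which 2 passed, and the 4 endothelial markers were all higher, of which 2 passed, where 3.31% of all probes rose. With the set as a block 0 oligodendrocyte, 0 astrocyte and 2 endothelial markers passed, and the oligodendrocyte and astrocyte medians were 0.13 and 0.16. Both astrocyte calls, *Aldoc* and *Slc1a2*, were also lost without male extreme responder 4 (adjusted p = 0.0514 and 0.0600). In that comparison the 4 choroid plexus markers were all lower, with a median of −0.27, and both thalamus markers were higher, with a median of 0.38. None of these passed. The medians of the microglia, pyramidal, dentate granule and striatum markers were −0.01, 0.01, −0.02 and −0.07. Of them 1 striatum marker fell, where 4.63% of all probes did. The part of any of these markers in the *Hsp90aa1* and *Fkbp5* results was not tested. The 4 dentate granule markers were all lower in male extreme responders than in male controls, with a median of −0.43. Their mean log2 levels were 8.38 to 8.89 in male extreme responders against 8.86 to 9.24 in male controls. Of the 4, *C1ql2* and *Pdyn* passed, where 0.454% of all probes fell, and neither did without male extreme responder 4 (adjusted p = 0.109 and 0.0963 by limma). All 4 were also lower in female minimal responders than in female controls, with a median of −0.35 and 0 past the threshold. The part of these markers in the male results was not tested either.

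**Figure D2:**
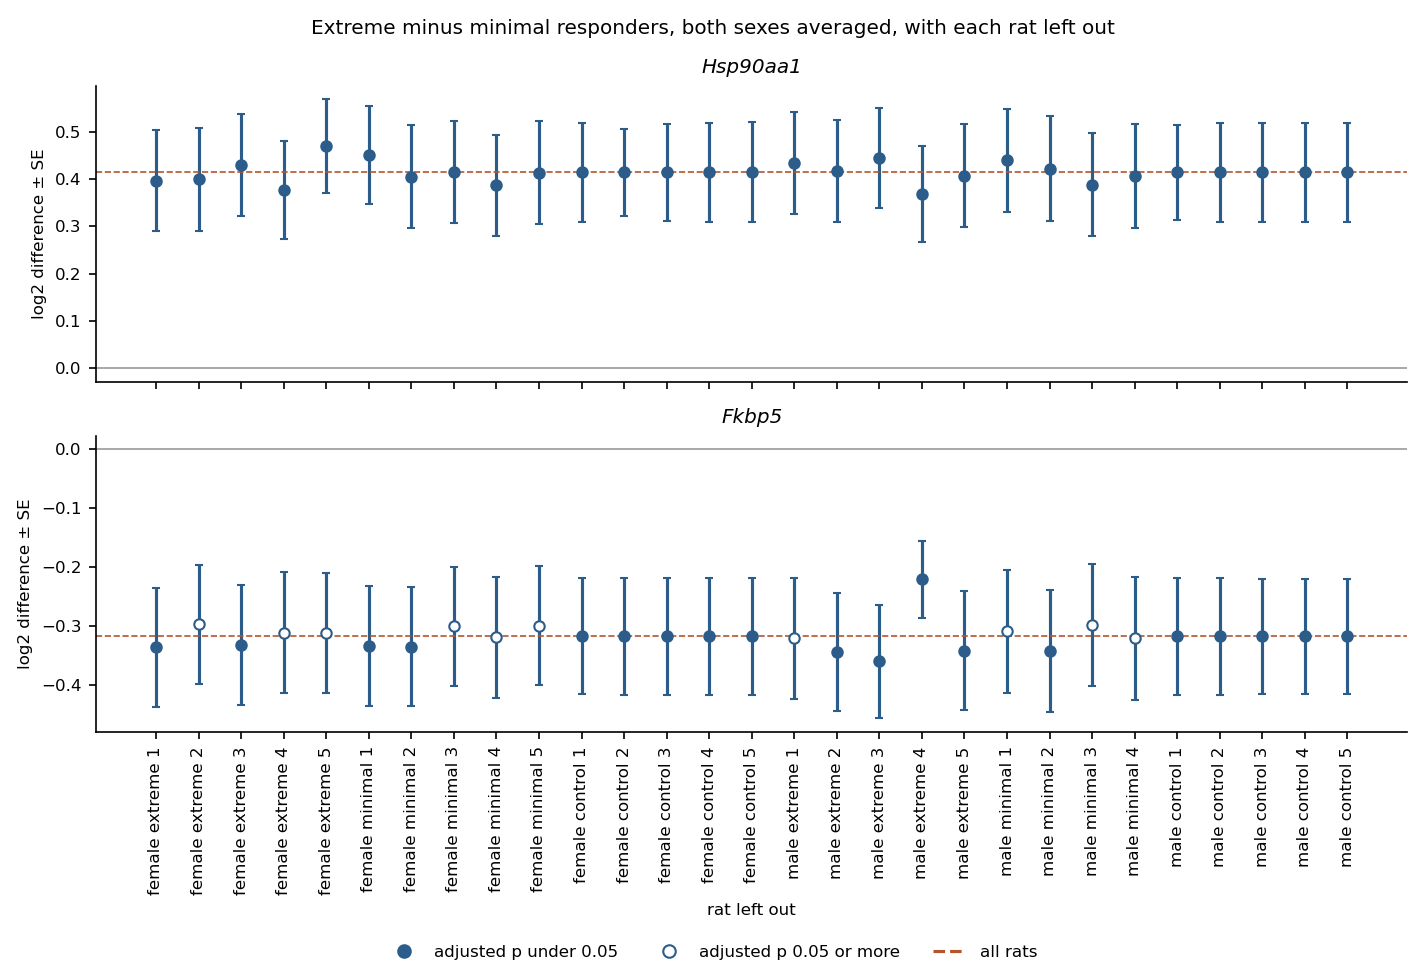
Log2 difference (± SE) of *Hsp90aa1* and *Fkbp5* between extreme and minimal responders with both sexes averaged, refitted with the rat named on the horizontal axis left out. Filled points have an adjusted p under 0.05, open points do not, and the dashed line is the value with all rats. *Hsp90aa1* is filled in all 29 fits and *Fkbp5* in 19, and *Fkbp5* is nearest to 0 without male extreme 4.

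*Stip1*, the adaptor between HSP70 and HSP90, did not follow *Hsp90aa1*. Its values in females were 9.79, 10.20, 10.38, 10.19 and 10.25 in extreme responders, 9.78, 10.28, 9.78, 10.32 and 9.82 in minimal responders, and 9.89, 9.91, 9.32, 9.91 and 9.88 in controls. The minimal responders fell into high rats of set B and low rats of set A. In males there were 10.22, 10.22, 10.07, 9.64 and 9.72 in extreme responders, 9.92, 9.78, 10.13 and 10.10 in minimal responders, and 10.06, 9.92, 9.77, 9.73 and 10.17 in controls. The largest difference was that of female extreme responders against controls, 0.38 ± 0.14 (adjusted p = 0.210 by limma), which was 0.19 with the set as a block (adjusted p = 0.527).

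Beyond the 9 genes, 18 others of the HSP90 machinery were looked for, of which 14 were on the array and 10 were kept. In extreme against minimal responders with both sexes averaged, 2 of the 10 fell and 0 rose, where 4.63% of all probes fell and 3.31% rose, with a median of 0.01 over the 10 and 0.00 over all probes. *Dnajb1*, an HSP40 co-chaperone of the heat shock response, was −0.21 ± 0.05 (adjusted p = 0.0141), and *Cdc37*, which brings kinases to HSP90, was −0.26 ± 0.06 (adjusted p = 0.0135). Both also passed with the set as a block (adjusted p = 0.0322 and 0.0471). Both fell in female extreme against minimal responders as well, by −0.37 ± 0.07 and −0.33 ± 0.09 (adjusted p = 0.00579 and 0.0284). Within this machinery, then, *Hsp90aa1* rose and *Dnajb1* and *Cdc37* fell in the same comparison with the sexes averaged.

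*Dnajb1* averaged 11.38 ± 0.0498 in female extreme, 11.75 ± 0.134 in female minimal and 11.44 ± 0.0743 in female control rats (SD, n = 5 each), so that, as for *Hsp90aa1*, the female minimal responders had the most distant mean, here the highest. Female minimal responders against controls differed by 0.31 ± 0.07, which did not pass (adjusted p = 0.124 by limma). In males *Dnajb1* averaged 11.50 ± 0.067 in extreme, 11.56 ± 0.157 in minimal and 11.39 ± 0.139 in control rats. Male extreme responders against controls gave 0 of the 10 machinery genes past the threshold, the smallest p-values being those of *Sugt1* (0.27 ± 0.10, adjusted p = 0.158) and *Ppid* (0.25 ± 0.10, adjusted p = 0.189). *Ppid*, the cyclophilin found in steroid receptor complexes beside FKBP51, passed there with the set as a block (0.42, adjusted p = 0.0181).

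**Figure D3:**
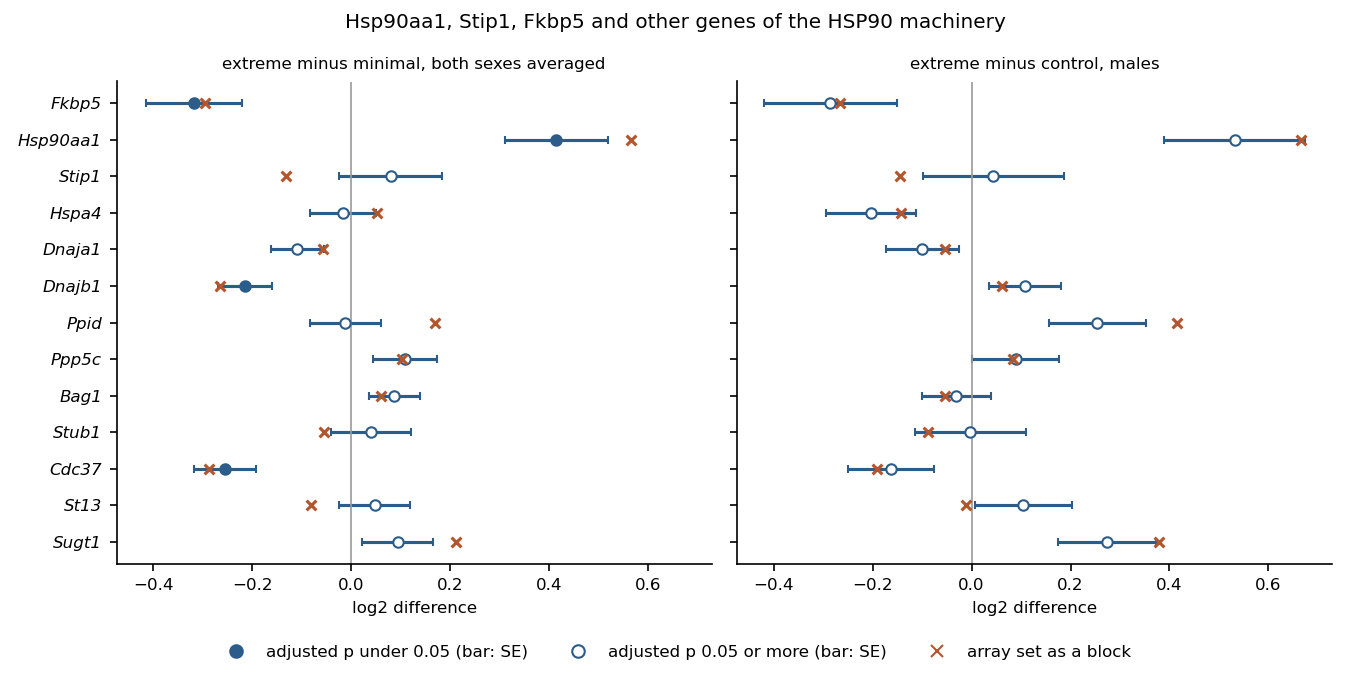
Log2 difference (± SE) of *Fkbp5*, *Hsp90aa1*, *Stip1* and the 10 other HSP90 machinery genes kept, for extreme minus minimal responders with both sexes averaged (left) and for male extreme minus control rats (right). Filled points have an adjusted p under 0.05, and crosses give the estimate with the array set as a block. On the left *Hsp90aa1* lies at 0.41 and *Fkbp5*, *Cdc37* and *Dnajb1* at −0.32, −0.26 and −0.21.

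*Ncor1*, a corepressor that recruits histone deacetylase activity, had its highest group mean, 9.68 ± 0.121 (SD, n = 5), in female extreme responders. The values were 9.78, 9.81, 9.52, 9.68 and 9.62 in female extreme responders, 9.05, 9.42, 9.31, 9.61 and 9.22 in female minimal responders, and 9.58, 9.58, 9.84, 9.44 and 9.43 in female controls. Extreme and minimal responders overlapped by 1 rat. Male extreme responders had 9.20, 9.29, 9.47, 9.80 and 9.46, male minimal responders 9.10, 8.97, 9.62 and 9.40, and male controls 9.69, 9.15, 9.11, 9.36 and 9.54. Extreme minus minimal was 0.36 ± 0.13 in females (adjusted p = 0.116 by limma) and 0.26 ± 0.09 with both sexes averaged (adjusted p = 0.0802), and neither passed. With the set as a block the values were 0.19 and 0.07 (adjusted p = 0.426 and 0.748).

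*Ncoa1*, the steroid receptor coactivator SRC-1, stayed between 9.69 and 10.40 on all arrays. Female extreme responders had 10.12, 9.92, 10.01, 9.78 and 9.81, female minimal responders 10.07, 9.94, 9.89, 9.88 and 10.35, and female controls 9.79, 9.69, 10.08, 10.16 and 10.00. Male extreme responders had 10.05, 10.16, 9.85, 10.28 and 9.95, male minimal responders 10.27, 10.02, 10.00 and 10.13, and male controls 9.82, 10.14, 10.09, 10.40 and 10.03. Every pair of groups overlapped. Its differences between extreme and minimal responders were −0.10 ± 0.11 in females and −0.05 ± 0.12 in males (adjusted p = 0.686 and 0.889), and turned to 0.05 and 0.14 with the set as a block.

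*Stat5b*, a transcription factor that binds the glucocorticoid receptor as a partner, was dim, above background on 21 of 29 arrays. It ranged from 6.77 to 7.25 in female extreme, 6.83 to 7.09 in female minimal and 6.88 to 7.32 in female control rats. In males it ranged from 6.93 to 7.21 in extreme, 6.85 to 7.22 in minimal and 7.01 to 7.14 in control rats. Its largest difference between groups of 1 sex was −0.11 ± 0.09, in female minimal responders against controls, and none passed by limma (adjusted p = 0.669 there).

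**Figure D4:**
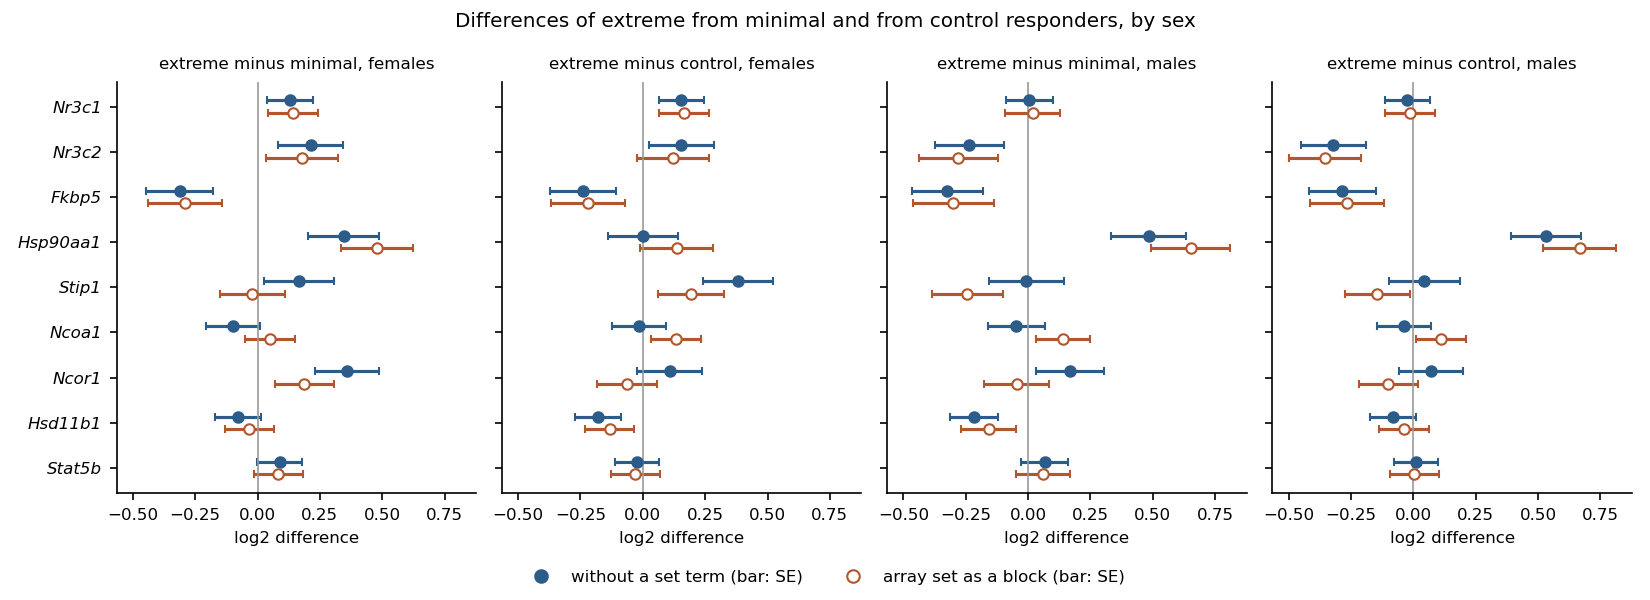
Log2 differences (bars: SE) of the 9 genes for extreme minus minimal and extreme minus control, in females (left 2 panels) and in males (right 2 panels). Filled points are from the fit without a set term and open points from the fit with the array set as a block. *Hsp90aa1* lies at 0.48 and 0.53 in males and at 0.35 and 0.00 in females, and *Stip1*, *Ncoa1* and *Ncor1* move most between the fits.

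Of the other coactivators and corepressors, 12 of 17 looked for were kept and none passed in any comparison. In male extreme responders against controls 11 of the 12 were higher, with a median of 0.14, against 47.5% of all probes higher and a median of −0.01, and with the set as a block the median was 0.06. *Ppargc1a*, a coactivator of mitochondrial genes, had 0.26 ± 0.09 (adjusted p = 0.112) and *Hdac3*, the deacetylase of the NCoR complex, 0.28 ± 0.10 (adjusted p = 0.142) there. Of 10 genes of steroid enzymes and transport, 2 were kept, *Por* and *Abcb1b*, and neither passed. *Por*, the electron donor of microsomal cytochromes, had −0.28 ± 0.10 in female extreme against minimal responders (adjusted p = 0.117). None of 8 partner transcription factors kept passed, and *Jun* had the smallest p, −0.42 ± 0.11 in male extreme responders against controls (adjusted p = 0.0626). Of 6 genes of receptor transport and turnover kept, *Dctn2*, a subunit of dynactin, fell in extreme against minimal responders with the sexes averaged (−0.22 ± 0.06, adjusted p = 0.0274), and was −0.07 with the set as a block (adjusted p = 0.550). Of the 4 sex steroid receptor genes, 3 were on the array and none was above the filter.

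Between females and males, averaged over the 3 behavioural groups, none of the 9 genes passed by limma where 0.21% of all probes did. An unadjusted p under 0.05 was met by 1 of them, *Ncor1*, and by 11% of all probes. *Ncor1* had the largest difference, 0.16 ± 0.08 (adjusted p = 0.429), followed by *Nr3c2* with 0.16 ± 0.08 (adjusted p = 0.459). *Hsp90aa1* and *Ncoa1* were on the other side, with −0.15 ± 0.08 and −0.12 ± 0.06 (adjusted p = 0.526 and 0.494).

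The 9 genes differed in their raw set A minus set B difference over all arrays. Every extreme responder was in set B, so this difference also holds that between extreme responders and other rats. A value near 0 therefore does not show that a gene was free of the sets. Set A minus set B was −0.29 for *Ncor1*, −0.28 for *Stip1*, 0.19 for *Fkbp5* and *Ncoa1* and 0.13 for *Hsd11b1*, and within 0.06 of 0 for *Nr3c1*, *Nr3c2*, *Hsp90aa1* and *Stat5b*. The median size over all probes was 0.08. For *Stip1* and *Ncor1*, 92.2% and 92.9% of probes had a smaller set difference, and for *Fkbp5* 81.9%. Since no extreme responder was in set A, a part of each extreme difference of the 9 genes cannot be told apart from the set without the block. For extreme minus minimal with both sexes averaged, the block took *Stip1* from 0.08 to −0.13, *Ncor1* from 0.26 to 0.07 and *Ncoa1* from −0.07 to 0.09. *Fkbp5* stayed close, at −0.32 without the block and −0.30 with it, and *Hsp90aa1* was further from 0 with it, at 0.57 against 0.41.

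The genes whose values were most like each member's over the 29 arrays, by Pearson's r, are given as a description. They share arrays, sets and normalisation, and the values after subtracting group and set means follow each r. *Fkbp5* was most like *Pkp2* (0.843, then 0.894), *Lsm8* (0.818, then 0.771) and *Rcn3* (0.806, then 0.772). Without male extreme responder 4 these r were 0.611, 0.628 and 0.538 in the same order. The values after subtraction include that rat. *Nr3c2* was most like *Cst6* (0.837, then 0.893), *Lrrn2* (0.816, then 0.879) and *Nmb* (0.815, then 0.818). These r were 0.688, 0.647 and 0.646 without that rat. *Hsp90aa1* was most like *Mpc1* (0.773, then 0.533), *Id2* (0.77, then 0.533) and *Lrrc4c* (0.762, then 0.576). *Stip1* had *Serf1* (0.81, then 0.737), *Ptms* (0.809, then 0.766) and *Txn1* (0.802, then 0.662). *Ncor1* had *App* (0.812, then 0.762), *Atp1b1* (0.797, then 0.632) and *Herc3* (0.783, then 0.564).

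Among the remaining members the highest r of each ranged from 0.568 to 0.772. *Ncoa1* was most like *Galnt9* (0.772, then 0.696), *Cdk5r2* (0.762, then 0.578) and *Arl6ip5* (0.726, then 0.576). *Hsd11b1* was most like *Fgfr1op2* (0.699, then 0.636), *Orc4* (0.692, then 0.652) and *Smpd3* (0.688, then 0.772). *Stat5b* was most like *Setd4* (0.69, then 0.688), *Fpgt* (0.632, then 0.692) and *Bloc1s5* (0.625, then 0.666). *Nr3c1* was most like *Gpr101* (0.568, then 0.529), *Khdrbs2* (0.551, then 0.454) and *Urb1* (0.54, then 0.475). No member was among the 3 closest of another. Between members, *Fkbp5* and *Hsp90aa1* had an r of −0.494, which was −0.237 without male extreme responder 4, and *Nr3c2* and *Fkbp5* had 0.41, which was −0.159 without that rat.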

How the data were processed

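Hippocampal RNA was copied into biotin-labelled cRNA and hybridised to Illumina arrays, per the labels. The deposited values are array intensities, read as log2 from their range of 6.31 to 15, since no source used here gives the log base, the software or the background correction. Sorted within each array, the values agree to 0.00119, which shows quantile normalisation by the authors before deposit. A second table of signals has 60 columns whose names match no label and was not used. The tests had been laid out for that table, and the deposited normalised values took its place.

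Probes above 7.03 (background mode 6.7 plus 3 times its SD, 0.109) on 5 or more arrays were kept, 11888 of 22523. One model of the 6 groups was fitted in limma (version 3.58.1, R 4.3.3; lmFit, eBayes) with no block. P-values are two-sided, Benjamini-Hochberg adjustment ran over all probes kept, and 0.05 was the threshold. The number of rats limits the precision. Alternatives were no filter and a stricter one, set, replicate number or sex handled otherwise, array weights, cyclic loess, a variance trend and leaving out each rat. Leaving out the 4 choroid-high arrays, and male extreme responder 4 together with the set block, was added after the data were seen. Array sets were found from gaps of at least 0.8 shared by 8 probes.

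The members and gene lists were chosen with earlier results of these data known. The genes named are all 9 members, up to 4 genes past the threshold or otherwise 2 of smallest p per list, and the 3 genes most like each member. Probes were named from the platform annotation, 1 probe a member. Labels give 1 rat per array. Rat numbers used here follow the order of the samples within each group and are not the rat names in the labels. They therefore cannot show a pairing of rats, and 70 same-number pairs had a mean correlation of −0.0227. Figures were drawn with matplotlib.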

Additional observations from a re-analysis of the deposited data

Results flagged for a closer look

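Of 54 group values of the 9 genes, 3 held a rat set far apart from the others of its group, by a test that chance meets in about 1 in 20 groups. *Fkbp5* was 9.39 in male extreme responder 4, while the other 4 male extreme responders lay at 10.19 to 10.51. That rat also had the lowest *Nr3c2* value, 7.28, and the highest *Hsp90aa1* value, 12.21, of all 29. *Stip1* was 9.32 in female control 3, with the other female controls at 9.88 to 9.91. *Stat5b* was 6.77 in female extreme responder 2, a value below the background level, with the other female extreme responders at 7.12 to 7.25.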

How the results depend on the processing

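The number of the 9 genes past the threshold was 2 for extreme against minimal responders with both sexes averaged. It was 1 (*Hsp90aa1*) with no filter, with the set as a block, without the arrays high in choroid plexus genes, and with the set as a block without male extreme responder 4, and 1 to 2 over the fits that left out 1 rat. *Ncor1* passed in 2 of those fits, without female minimal 4 (0.30, adjusted p = 0.0455) and without male minimal 3 (0.32, adjusted p = 0.0291). *Fkbp5* failed in 10, without female extreme 2, 4 or 5, female minimal 3, 4 or 5, male extreme 1 or male minimal 1, 3 or 4 (adjusted p = 0.0503 to 0.0784). With no filter its adjusted p was 0.0625. For female extreme against minimal responders the number was 0, and 1 with each sex alone (*Fkbp5*, adjusted p = 0.0483), 1 with the set as a block without male extreme responder 4 (*Hsp90aa1*, 0.48, adjusted p = 0.0374) and 0 to 1 over the fits that left out 1 rat, the 1 being *Fkbp5* without male extreme 4 (adjusted p = 0.0321). For male extreme responders against controls it was 0, and 1 (*Hsp90aa1*) with the set as a block and without the choroid-high arrays, and 0 to 1 over the fits that left out 1 rat. The counts were 0 throughout in the other 8 comparisons, and no called value changed sign.

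With the replicate number as a block, *Fkbp5* (−0.32, adjusted p = 0.0496) and *Hsp90aa1* (0.42, adjusted p = 0.0209) stayed past the threshold and the number for both sexes averaged was 2. No call of the 9 genes changed, but the numbers only follow sample order, so this fit does not test a pairing. Only 1 of 29 arrays was closest to an array of its own number. Over all probes, 945 passed for extreme against minimal responders with both sexes averaged, and 244 with the set as a block, 1150 with array weights and 609 to 1143 over the fits that left out 1 rat. For female extreme against minimal responders 450 passed, 697 with array weights and 0 in set B alone. Set B held 5 female extreme but only 2 female minimal responders, so that fit could see little. For male extreme responders against controls 74 passed, and 6 to 124 over the fits that left out 1 rat, 18 without male extreme 4. Male minimal responders could not be compared within set B, which held 1 of them. The dim probes of *Nr3c1* and *Stat5b* limit what could be seen of those genes.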
